A study of Homo sapiens with 15 samples.

Results

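The genes described here encode the protein subunits of the human cytosolic ribosome. They were found on the arrays as all probes whose RefSeq accession belonged to a gene named RPL or RPS plus a number, to RPLP0, RPLP1, RPLP2, or to RPSA, leaving out the RPS6K kinases, RPS27L, RPS4Y1, and pseudogenes. This gave 153 probes for 80 ribosomal protein (RP) genes, 31 of the small subunit (RPS) and 49 of the large subunit (RPL), among 18013 genes with a usable probe. All 153 RP probes were well above background on all 15 arrays, 41 genes had 1 probe, and RPL21 had the most, with 9.

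RNA came from xenograft tumors of HCT116, a human colon cancer cell line, grown in athymic nude mice and excised at day 35. Before injection the cells had been transfected with unmutated MOAP-1 bearing a Myc tag, with the same protein in which a lysine was replaced by an arginine (K264R or K278R), with HA-tagged RASSF1A in pCDNA3, or with the empty pCDNA3 vector (Vector). MOAP-1 is a partner of the cell death protein Bax and of the tumor suppressor RASSF1A. Each construct had 3 tumors, with 1 tumor on each single-color Agilent array. The transfections of HCT116 cells were transient per the study's text, and how many cells still carried the construct at day 35 was not measured here. The host mice lack T cells but keep other cell types, and mouse RNA can reach human probes.

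The ribosome joins amino acids in the order given by an mRNA. Its small subunit reads the mRNA and its large subunit forms the peptide bonds and passes the new chain out through an exit tunnel. RP mRNAs are among the most abundant in a growing cell. Most of them begin with a run of pyrimidines, called the 5′ terminal oligopyrimidine (TOP) tract, through which the mTOR pathway controls their translation, a step that RNA arrays do not measure.

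The sequence at the start of the transcript is shown for some of the genes that the results below turn on, because it is what most members share and some paralogs lack. Each is 30 bases of the sense strand, 15 before and 15 from the annotated start, from the RefSeq promoter sequences of the build GRCh38.p14, with the longest unbroken run of C and T in these 30 bases in capitals.
RPS26, chr12:56041903-56041932, plus strand: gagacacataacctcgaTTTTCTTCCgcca
RPL39, chrX:119791616-119791645, minus strand: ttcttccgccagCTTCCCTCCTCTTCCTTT
RPL35A, chr3:197950175-197950204, plus strand: cggcggggcctcgTCCTTCTCTTaccgcca
RPS3, chr11:75399503-75399532, plus strand: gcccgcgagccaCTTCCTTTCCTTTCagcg
RPL4, chr15:66504841-66504870, minus strand: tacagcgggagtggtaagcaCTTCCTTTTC
RPL7L1, chr6:42879601-42879630, plus strand: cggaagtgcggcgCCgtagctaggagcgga
RPL26, chr17:8383179-8383208, minus strand: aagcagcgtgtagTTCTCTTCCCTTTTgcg
RPL26L1, chr5:172958714-172958743, plus strand: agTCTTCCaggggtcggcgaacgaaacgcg
A run of at least 7 pyrimidines was found in this window in 55 of the 65 RP genes with an entry (84.6%) and in 6467 of 27240 other genes (23.7%). RPL7L1 and RPL26L1, paralogs of RPL7 and RPL26, were among the 10 RP genes without it. Genes with the run had a median change of -0.33 on the log2 scale between MOAP-1 and Vector tumors, and genes without it a median change of -0.28.

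All 13 markers of colon epithelium were well above background on every array. The 1 probe of MOAP1 lay between 0.34 and 0.71 for MOAP-1 and between -0.53 and -0.13 for Vector, on the scale of log2 signal over the array's 75th percentile, and was higher by 0.87 (limma, adjusted p = 0.000842). The RASSF1 probe was at 1.55 to 1.59 in the tumors labelled RASSF1A and at 1.52 to 1.81 in Vector tumors (change -0.12, limma, adjusted p = 0.671), so the label RASSF1A has no support from that probe, which may not report the transfected form. Construct and slide cannot be told apart in most comparisons, because the Vector arrays shared a slide only with 1 RASSF1A array and the K264R arrays had a slide to themselves. Nothing in the labels says that the tumors of a construct came from separate transfections, so p values measure the spread between these tumors.

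The first question was whether RP mRNAs differed between MOAP-1 and Vector tumors. With each array scaled to its 75th percentile, 42 of 80 RP genes fell, 3 rose, and 35 did not pass the test, each gene being represented by its brightest probe (limma, adjusted p below 0.05 over all probes). Over all 18013 genes, 14.1% were called lower and 15.4% higher. The median change of the RP genes was -0.33 on the log2 scale, against 0.01 for all genes. Both subunits had values of this kind, with 16 of 31 RPS genes lower and 1 higher (median -0.32) and 26 of 49 RPL genes lower and 2 higher (median -0.34). The lower direction depended on the scaling, as the next paragraphs show. It was gone after quantile normalization, with 6 RP genes lower, 11 higher, and a median change of 0.01. Setting the array median to 0, which also moved the median of all probes down, gave 58 lower and 3 higher. The authors' own log2 table gave 40 lower and 3 higher. The share of all genes called in these settings is not reported here. The count of 45 calls was 25 without Vector tumor 2 and 29 without MOAP-1 tumor 2 or tumor 3, and 7 of the 45 reached 1.5-fold.

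The median scaled level of the 80 genes was 6.37, 6.32, and 6.32 for MOAP-1, compared with 6.59, 6.72, and 6.63 for Vector, so that the groups did not overlap. It was 6.25, 6.33, and 6.22 in K264R tumors, 6.43, 6.41, and 6.33 in K278R tumors, and 6.53, 6.65, and 6.48 in the tumors labelled RASSF1A. MOAP-1 and both of its mutant forms thus lay below Vector and RASSF1A in every tumor. The signal before scaling did not show this order. The median processed signal of the RP genes was 63718 to 81883 on MOAP-1 arrays and 60605 to 76227 on Vector arrays, which overlap, and it was highest on K264R arrays, at 93081 to 104400. The 75th percentile of the whole array, by which the signal was divided, was 799.6 to 1022 on MOAP-1 arrays, 1176 to 1402 on K264R arrays, and 631.0 to 767.6 on Vector arrays.

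**Figure D1:**
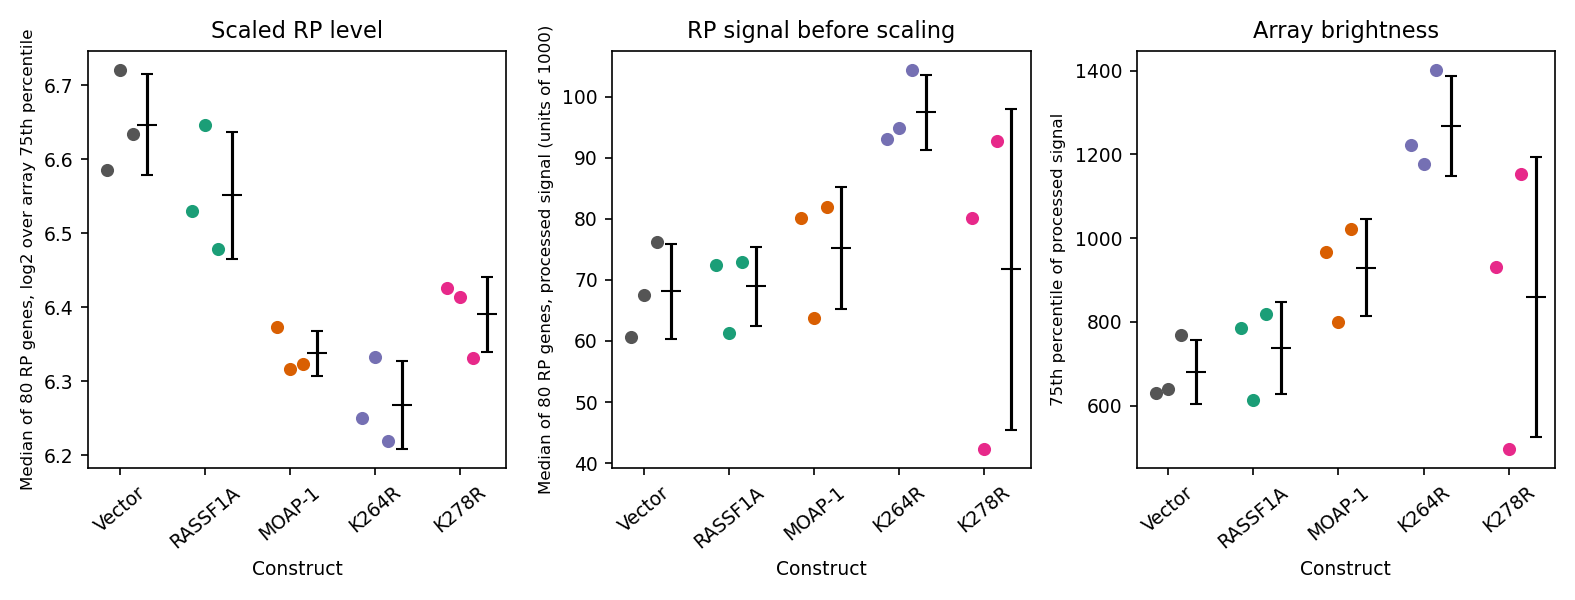
Median level of the 80 RP genes on each of the 15 arrays after scaling (left, log2), before scaling (middle, processed signal in units of 1000), and the array's 75th percentile (right). Points are tumors, and the bars give the mean and SD of 3. MOAP-1, K264R, and K278R arrays lie below Vector and RASSF1A arrays on the left only, and K264R arrays have the highest values in the other panels.

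The RP probes lay at the upper end of the signal range. The brightest probe was among the top 1% of usable probes for 66 of the 80 genes, and 85 of the 306 probes in that top 1% were RP probes. On each array 2 to 16 RP genes exceeded 80% of the highest signal of the array, which was 153158 to 182431 on arrays whose 75th percentile ran from 496.3 to 1402. No RP spot carried the scanner software's saturation flag. Other bright probes had the same kind of change: the 305 probes in the top 1% of those that are not RP probes had a median change of -0.36 between MOAP-1 and Vector tumors, with 45.9% called lower. The median was -0.26 in the next 4%, -0.13 in the next 15%, 0.02 in the next 30%, and 0.10 in the dimmest 50%. The same order was seen among RP probes, with a median of -0.40 in the brightest 51, -0.25 in the middle 51, and 0.21 in the dimmest 51. The RP median of -0.33 was therefore close to that of other probes of like brightness, and the part of brightness in the change was not tested.

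**Figure D2:**
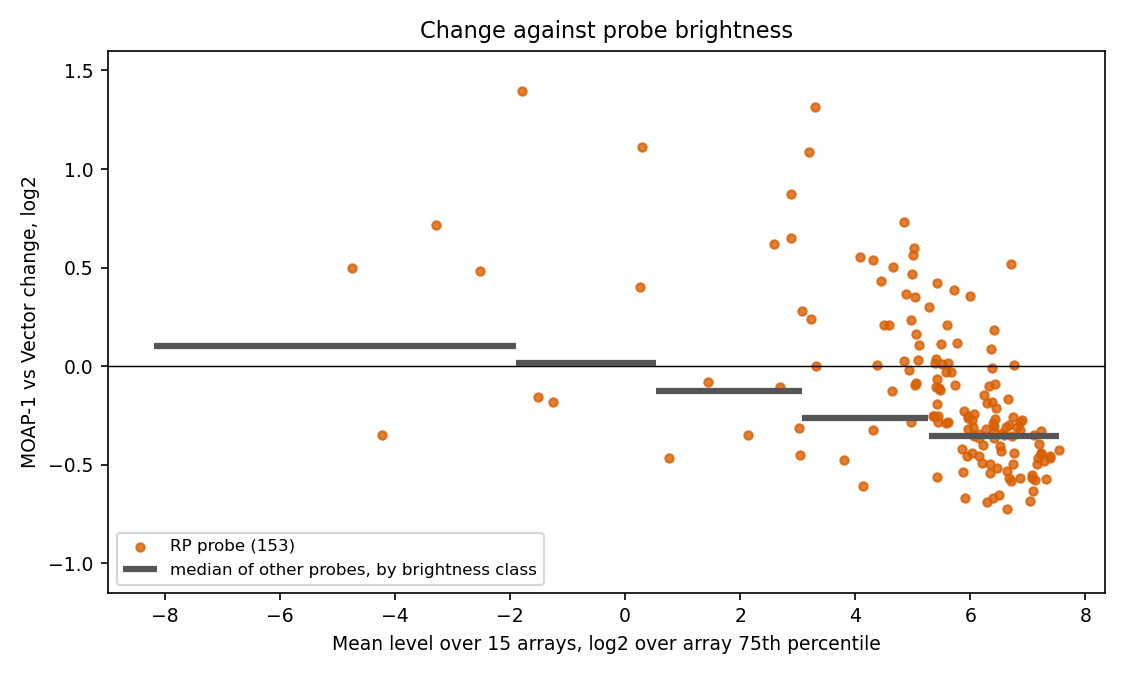
Change between MOAP-1 and Vector tumors (log2) of the 153 RP probes against their mean level over the 15 arrays (log2 over the array's 75th percentile). Grey lines are the medians of all other probes in 5 classes of brightness, from 0.10 in the dimmest 50% to -0.36 in the brightest 1%, and the RP points bend down over the same range.

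Setting each array to the median of the other top 1% probes, chosen after seeing the data, left 15 RP genes higher and 6 lower, with a median change of 0.02. Without any scaling 3 were higher and 0 lower at adjusted p below 0.05 (limma), or 8 and 0 at an unadjusted p below 0.05, with a median of 0.12. In both of these settings the median of all probes lay above that of the RP genes, with the values given in the section on processing below. The share of all genes called in these settings is not reported here. 7 RP genes kept their call and direction in the fits to the 75th percentile, the array median, quantiles, the other bright probes, and the authors' own log2 table. RPL4, RPL7L1, and RPS3 rose in all of them, and RPL10, RPL35A, RPL39, and RPS26 fell. The normexp background model, under which 15 spots on 3 arrays take extreme values, called 0 RP genes (limma). At an unadjusted p below 0.05 (limma) 5 were higher and 1 lower, and the share of all genes is not reported here.

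RPL39, a small protein of the exit tunnel, was at 5.77, 5.50, and 5.55 in MOAP-1 tumors and at 6.25, 6.35, and 6.24 in Vector tumors. The groups did not overlap, and the level fell by 0.67 on the log2 scale (SE 0.09, 1.59-fold lower, limma, adjusted p = 0.000317). All 4 probes of RPL39 fell, by 0.47 to 0.67. RPS26, a subunit at the mRNA exit channel and a Diamond-Blackfan anemia gene, was at 6.30, 6.21, and 6.31 in MOAP-1 tumors and at 6.90, 7.11, and 6.98 in Vector tumors. It had the largest fall of the family at its brightest probe, by 0.73 (SE 0.17, 1.65-fold, limma, adjusted p = 0.00681). 1 of its other 2 probes fell by 0.29 and the last did not pass the test, at -0.35. RPL35A, also a Diamond-Blackfan anemia gene, was at 6.22, 6.19, and 6.20 in MOAP-1 tumors and at 6.77, 6.94, and 6.84 in Vector tumors, and fell by 0.65 (SE 0.12, limma, adjusted p = 0.00192). RPL31, which sits at the rim of the exit tunnel, fell by 0.63 and RPL6, a large-subunit protein, by 0.58. RPL31 lost its call after quantile normalization and RPL6 after both quantile normalization and scaling to the other bright probes.

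3 RP genes rose. RPL7L1, a paralog of RPL7 that acts in the making of the large subunit, was at -0.95, -1.08, and -0.97 in MOAP-1 tumors and at -2.14, -3.09, and -1.97 in Vector tumors. It was higher by 1.40 (SE 0.32, 2.64-fold, limma, adjusted p = 0.00631). RPS3, a small-subunit protein at the mRNA entry that lies near RACK1, was at 4.26, 4.07, and 4.08 in MOAP-1 tumors and at 2.85, 2.04, and 3.58 in Vector tumors (change 1.31, SE 0.43, 2.49-fold, limma, adjusted p = 0.0352). RPL4, which lines the narrowest stretch of the exit tunnel, was at 5.43, 5.38, and 5.37 in MOAP-1 tumors and at 4.87, 4.58, and 5.05 in Vector tumors (change 0.56, SE 0.15, 1.48-fold, limma, adjusted p = 0.0156). None of these overlapped between the groups. The Vector tumors were spread widely in all 3 genes, with Vector tumor 2 lowest each time. The call of RPS3 was lost without any one of Vector tumors 1 and 2 and MOAP-1 tumors 1, 2, and 3 (0.92 without Vector tumor 2), and that of RPL4 without Vector tumor 2 (0.44). The methods' t-test with adjustment called 0 RP genes higher. Each of these genes has 1 probe.

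**Figure D3:**
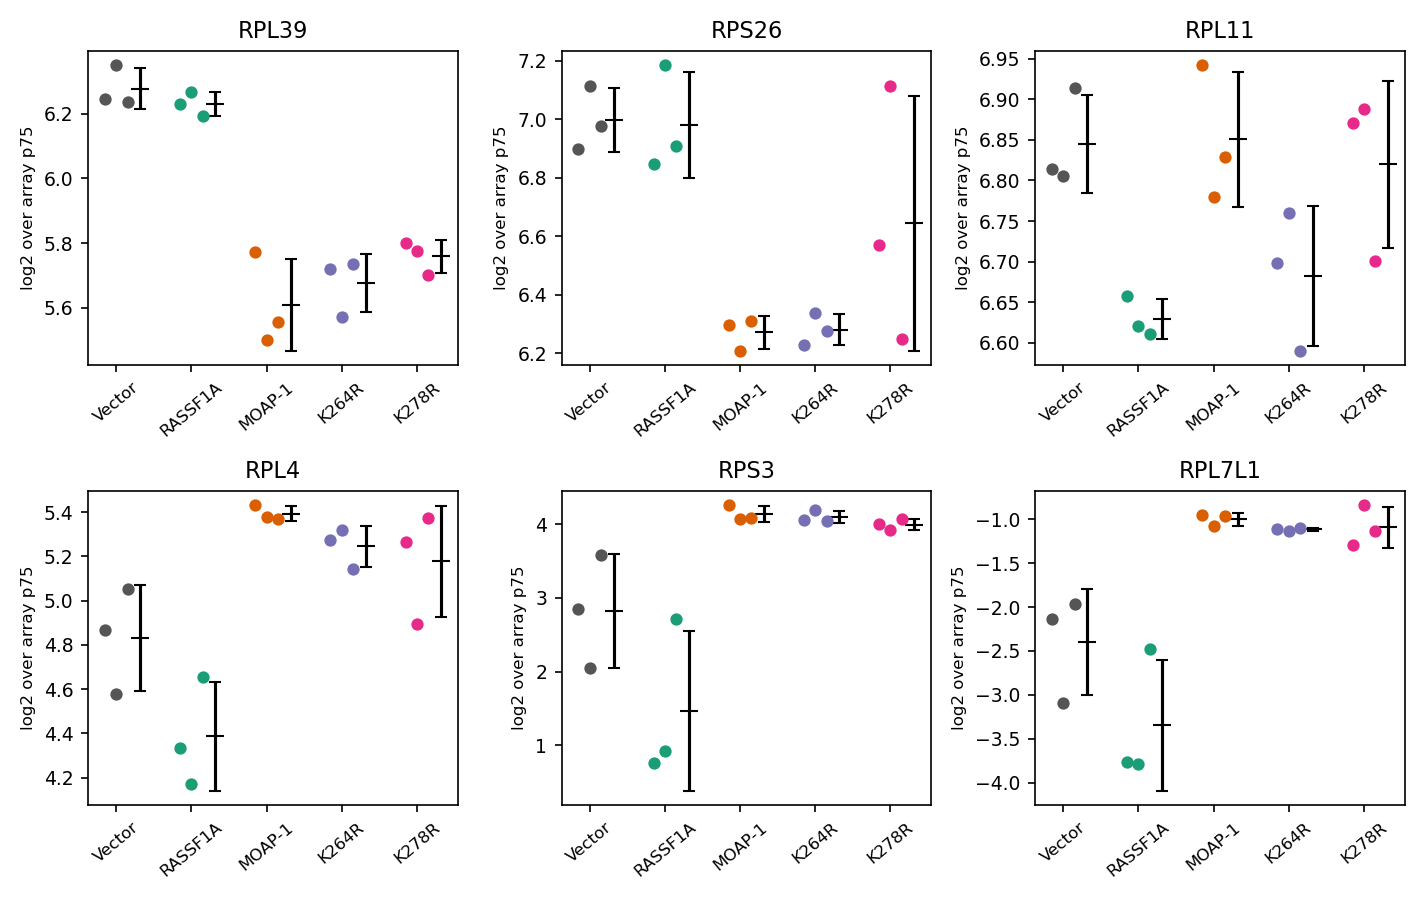
Level of 6 RP genes in each tumor (log2 over the array's 75th percentile, each panel with its own axis). Points are tumors, and bars give the mean and SD of 3. RPL39 is lower in all MOAP-1, K264R, and K278R tumors than in all Vector tumors, RPL11 overlaps between MOAP-1 and Vector tumors, and RPS3 and RPL7L1 are close together in the MOAP-1, K264R, and K278R tumors and spread in the Vector tumors and those labelled RASSF1A.

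The values of MOAP-1 and Vector tumors did not overlap for 58 RP genes that were lower and 7 that were higher, against 23.9% and 25.1% of all genes.

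By role, the stalk that recruits elongation factors had RPLP0 lower by 0.40 (SE 0.12, limma, adjusted p = 0.0266), while RPLP1 at -0.48 and RPLP2 at -0.33 did not pass (adjusted p = 0.154 and 0.0617, limma). In quantile-normalized values RPLP0 was at 0.02. RPL5 and RPL11, which with 5S rRNA form the particle that can bind MDM2, were at -0.27 and 0.01 and neither passed. RPL11 was at 6.94, 6.78, and 6.83 in MOAP-1 tumors and at 6.81, 6.81, and 6.91 in Vector tumors, which overlap. RPS6, the subunit phosphorylated by S6 kinase, fell by 0.31 (SE 0.10, limma, adjusted p = 0.0347), but was at 0.03 after quantile normalization. RPS27A, which is made as a fusion with ubiquitin, fell by 0.54 (SE 0.09, limma, adjusted p = 0.000943) and was also called lower after quantile normalization, though not when scaled to the other bright probes. The calls of RPLP0 and RPS6 were both lost without Vector tumor 1 or 2 or MOAP-1 tumor 3, and also without MOAP-1 tumor 1 for RPLP0 and without MOAP-1 tumor 2 for RPS6, at changes of -0.40 to -0.31 and -0.34 to -0.25.

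Of the paralog pairs, RPL7 fell by 0.49 (limma, adjusted p = 0.00559) while RPL7L1 rose. RPL26 fell by 0.32 (limma, adjusted p = 0.0162) and RPL26L1, at -0.11, did not pass (adjusted p = 0.496, limma). RPL22L1 fell by 0.44 (limma, adjusted p = 0.0154) and RPL22 was at -0.31 (adjusted p = 0.0882, limma). The calls of RPL26 and RPL22L1 were lost without Vector tumor 2 or 3 or MOAP-1 tumor 2, and that of RPL26 also without MOAP-1 tumor 3, at changes of -0.30 to -0.29 for RPL26 and -0.41 to -0.38 for RPL22L1. RPL7, RPL26, and RPL22L1 were called neither after quantile normalization nor when scaled to the other bright probes, and RPL26 was then at 0.00 and 0.03. The difference between the members of a pair was not tested. Of the other roles, to be read against the 14.1% of all genes called lower and 15.4% called higher, 5 of 7 exit tunnel genes fell and 1 rose (median -0.52), with RPL39 and RPL31 the largest changes. Of 8 genes of the mRNA channel and decoding site 3 fell and 1 rose (median -0.26), with RPS3 and RPS26 the largest. Of 10 Diamond-Blackfan anemia genes 5 fell and 0 rose (median -0.29). Of 3 genes for subunits near RACK1 0 fell and 1, RPS3, rose (median 0.11).

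Probes of the same gene did not always move together. Of 39 RP genes with more than 1 probe, 23 had all probes on the same side of 0 between MOAP-1 and Vector tumors and 16 did not. The gap between the lowest and the highest probe had a median of 0.30 over these genes. 4 genes had probes called in opposite directions. RPL10, a large-subunit protein that acts when the subunits join, fell by 0.67 at its brightest probe (limma, adjusted p = 0.000752), while another of its 4 probes was at 5.51, 5.42, and 5.34 in MOAP-1 tumors and at 4.94, 4.47, and 5.07 in Vector tumors and rose by 0.60 (limma, adjusted p = 0.0236). The mean over the probes of RPL10 changed by 0.01. For RPL5, the probe outside the bright pair was at 3.88, 3.70, and 3.76 in MOAP-1 tumors and at 2.62, 2.33, and 3.12 in Vector tumors, and rose by 1.09 (limma, adjusted p = 0.00159). RPL6 fell by 0.58 at one probe and rose by 0.47 at the other (limma, adjusted p = 0.00226 and 0.00886). RPL23A, at the rim of the exit tunnel, fell at 3 probes by 0.26 to 0.30 and rose at its dimmest by 0.40 (limma, adjusted p = 0.044), with the call of its brightest probe lost without any one of the Vector tumors or MOAP-1 tumor 2 or 3 (-0.29 to -0.22). In the first 3 of these genes the rising probe was lowest in Vector tumor 2 among the Vector tumors, as were RPS3, RPL4, and RPL7L1. Counted over RP probes, 63 of 153 fell and 11 rose, against 14.5% lower and 16.1% higher of all 30585 probes.

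**Figure D4:**
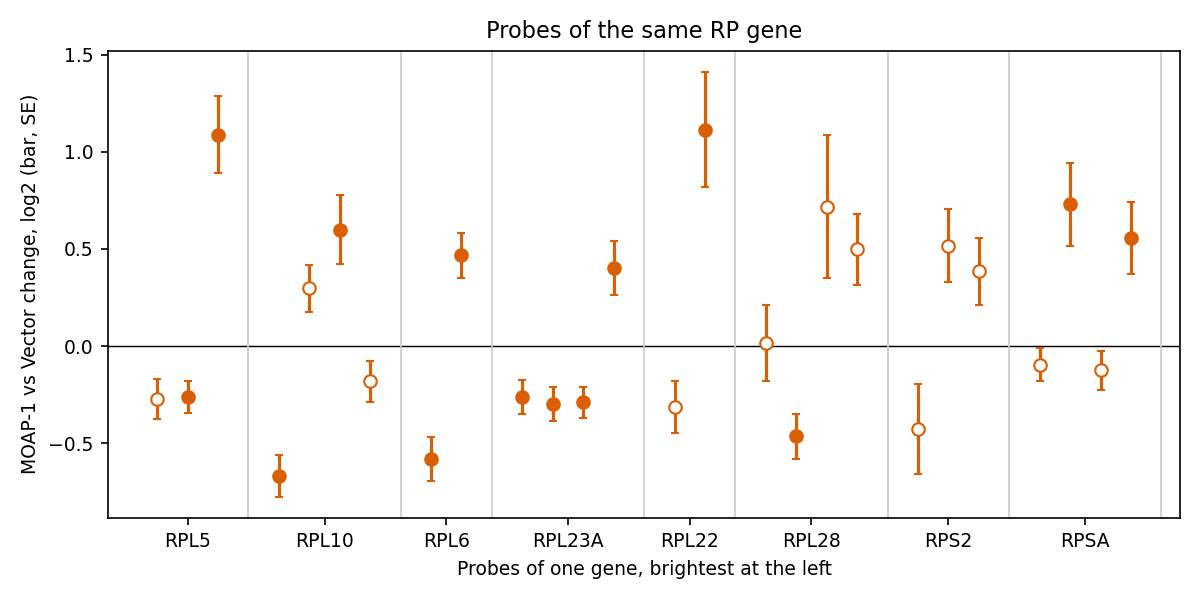
Change between MOAP-1 and Vector tumors (log2, bars give the SE) of every probe of 8 RP genes, with filled points at limma adjusted p below 0.05 and open points otherwise. The first 4 genes had probes called in opposite directions, such as RPL5 at -0.26 and 1.09, and the last 4, RPL22, RPL28, RPS2, and RPSA, were added for their wide gaps after their values were seen.

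The mutant forms were compared with the same 3 Vector tumors, so their values stand beside those of MOAP-1 and are not independent of them. In K264R tumors 56 of 80 RP genes fell and 2 rose (median -0.44), against 18.3% lower and 16% higher over all genes. In K278R tumors 25 fell and 1 rose (median -0.27), against 8.03% lower and 11.3% higher. The top 1% of the other probes had medians of -0.51 and -0.26 in these comparisons, and K264R called 69.2% of them lower and K278R 25.2%. After quantile normalization the RP counts were 4 lower and 12 higher in K264R tumors, and 2 lower and 2 higher in K278R tumors. The share of all genes called after quantile normalization is not reported here. The 42 genes that fell in MOAP-1 tumors were all lower in K264R tumors, and 25 of them in K278R tumors. The K278R count of 26 calls was 4 without Vector tumor 2, 8 without K278R tumor 3, 16 without K278R tumor 1, 42 without K278R tumor 2, and 1 in a fit of those 6 arrays alone.

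In K264R tumors the largest falls were those of RPL13, RPL19, and RPS18, structural proteins of the large and the small subunit. Their brightest probes stood at percentiles 99.89, 99.96, and 99.98 of usable probes in mean level, at the upper end of the signal range. The part of brightness in these falls was not tested. RPL19 was at 6.88, 6.94, and 6.69 in K264R tumors and at 7.79, 7.83, and 7.55 in Vector tumors, and fell by 0.89 (SE 0.15, limma, adjusted p = 0.00067). RPL13 fell by 0.89 and RPS18 by 0.88. Without scaling these genes were at 0.01, 0.01, and 0.02 in the order RPL13, RPL19, and RPS18. RPL7L1 was at -1.11, -1.13, and -1.10 and rose by 1.28 (limma, adjusted p = 0.00829), and RPS3 at 4.05, 4.20, and 4.05 also rose by 1.28 (limma, adjusted p = 0.0355), a call lost without any one of the K264R tumors or Vector tumor 1 or 2 (0.89 to 1.30). In K278R tumors RPL39 was at 5.80, 5.77, and 5.70 and fell by 0.52 (limma, adjusted p = 0.00355), RPLP0 fell by 0.51 and RPL19 by 0.50. Both of the latter calls were lost without Vector tumor 2 or K278R tumor 3, and that of RPL19 also without Vector tumor 1 or K278R tumor 1, at -0.47 to -0.43 and -0.51 to -0.35. RPL7L1 was at -1.29, -0.84, and -1.14 and rose by 1.31 (limma, adjusted p = 0.015), a call lost without Vector tumor 2 (0.96). K278R tumor 2 stood apart in some members: RPS26 was at 7.11 there and at 6.57 and 6.25 in the other K278R tumors.

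**Figure D5:**
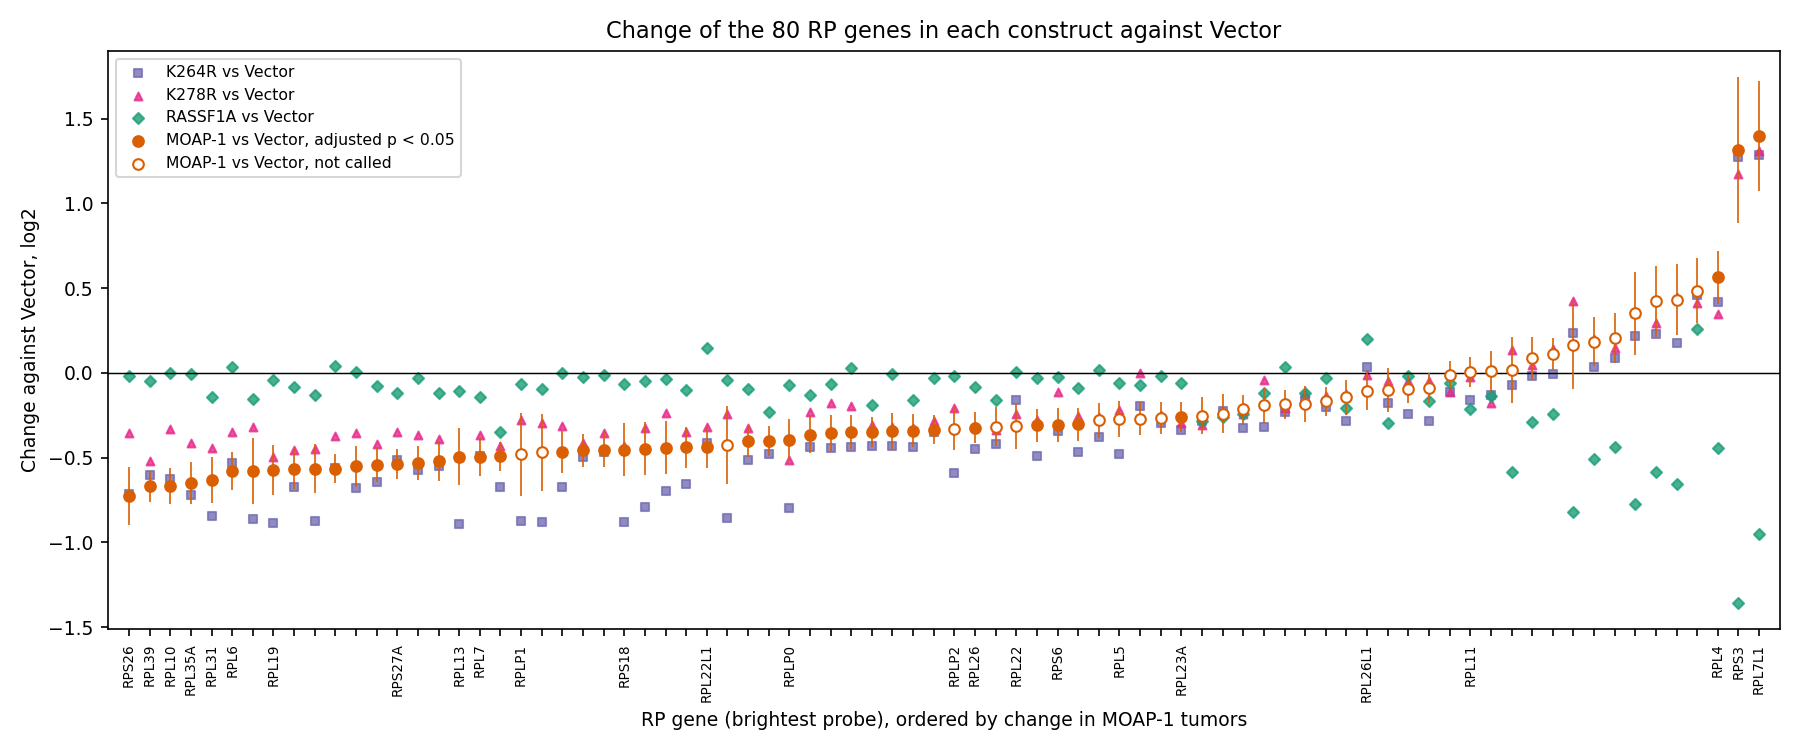
Change of each of the 80 RP genes at its brightest probe against Vector (log2), ordered by the change in MOAP-1 tumors, with the SE of that change as bars, filled circles at adjusted p below 0.05, and names under genes that the text describes. Squares are K264R, triangles K278R, and diamonds the tumors labelled RASSF1A. The points of MOAP-1 and its mutant forms run from -0.89 (RPL13 in K264R tumors) to 1.40 (RPL7L1 in MOAP-1 tumors), and those of RASSF1A lie near 0 except at the right, where most lie below it.

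In direct comparison, 0 of 80 RP genes were called between MOAP-1 and K264R tumors and 0 between MOAP-1 and K278R tumors, as were 0% of all genes in either comparison (limma). At an unadjusted p below 0.05 (limma) there were 4 of 80 RP genes in each, beside 1830 and 1652 of all 18013 genes. The methods' t-test with Benjamini-Hochberg adjustment called 0 RP genes in each. With limma's array weights, 23 RP genes were higher and 1 lower in MOAP-1 than in K264R tumors. K264R tumor 3 had a weight of 13.2 there, so the K264R mean rested largely on that tumor. The share of all genes called under these weights is not reported here, and the 0% above is from the unweighted fit. The median change was 0.10 against K264R and -0.06 against K278R. On the slide that MOAP-1 tumor 2 shared with the K278R tumors, it was lower than their mean in 64 of 80 RP genes with a median difference of -0.09. This too rests on a single array, and the same count over all genes was not made.

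In the tumors labelled RASSF1A 0 of 80 RP genes were called against Vector, as were 0% of all genes (limma). The median change was -0.08, and the methods' t-test called 0 RP genes after adjustment. At an unadjusted p below 0.05 (limma) there were 19 of 80 RP genes, beside 2185 of all 18013 genes. Without RASSF1A tumor 3, 10 RP genes were called, all lower. That fit keeps RASSF1A tumors 1 and 2, whose slide and scan day no Vector array shared, so construct, slide, and scan day cannot be told apart in it. The share of all genes called in that fit is not reported here, and the 0% above is from the full fit. RASSF1A tumor 3, on the slide of the Vector tumors, was below their mean in 78 of 80 RP genes, with a median difference of -0.13. These are values of a single array, and the genes are not independent readings of it. The same count over all genes was not made. RPS3 was at 0.77, 0.92, and 2.72 in these tumors and RPL7L1 at -3.77, -3.79, and -2.48, in both with tumors 1 and 2, which were scanned on another day and slide, lower than tumor 3. These values overlap those of Vector tumors, and neither change passed (-1.36 and -0.95, adjusted p = 0.341 and 0.348, limma).

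The change against Vector differed between MOAP-1 and RASSF1A for some members, which the comparison of MOAP-1 with RASSF1A tumors tests directly. There 30 RP genes were lower in MOAP-1 tumors and 12 higher (median -0.28), against 18.3% and 18.8% of all genes. RPL39 changed by -0.62 (limma, adjusted p = 0.000225), and RPS26 changed by -0.71 (limma, adjusted p = 0.00551). RPS3 was higher by 2.67 (SE 0.43, limma, adjusted p = 0.000436), RPL7L1 by 2.35 (SE 0.32, limma, adjusted p = 0.000154), and RPL4 by 1.01 (SE 0.15, limma, adjusted p = 0.000308). With the scan day as a term, which leaves RASSF1A tumor 3 to carry the comparison, 3 were lower and 3 higher. After quantile normalization 11 were lower and 19 higher. The share of all genes called in these fits is not reported here. The count of 42 was 26 without RASSF1A tumor 2.

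Other genes of the protein synthesis machinery were read from lists. Of 20 factors of translation and related proteins with TOP mRNAs, such as elongation factors, 4 fell and 3 rose between MOAP-1 and Vector tumors, with a median of 0.00. Of 47 measured genes of ribosome biogenesis, the nucleolar and processing factors that assemble the subunits, 4 fell and 5 rose (median 0.08). Of 75 mitochondrial RP genes, which are encoded in the nucleus and form the ribosome of the mitochondrion, 8 fell and 12 rose (median -0.06). Over all genes 14.1% were called lower and 15.4% higher, with a median of 0.01, against which these counts are to be read. The difference between lists was not tested.

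Markers of other cells were also taken as lists. Over all genes 15.4% were called higher and 14.1% lower in MOAP-1 against Vector tumors, against which the counts here are to be read. These shares were 11.3% and 8.03% in K278R tumors and 16% and 18.3% in K264R tumors. The summed signal of 8 measured stromal markers of 10, in multiples of the 75th percentile, was 6.92 to 50.7 in MOAP-1 tumors and 2.36 to 21.8 in Vector tumors, and all 8 had a positive change (median 1.61) with 1 called. In K278R tumors the sum was 14.9 to 48.3 (median change 1.52, 1 called). In K264R tumors it was 5.40 to 21.9 (median change 0.32, 0 called by limma and 0 at an unadjusted p below 0.05). The ranges for MOAP-1, K278R, and K264R tumors all overlapped that of the Vector tumors. LUM and POSTN had no usable probe. 7 endothelial markers of 8 summed to 2.88 to 3.41 and 2.64 to 2.88, 6 leukocyte markers of 8 to 9.54 to 12.7 and 11.5 to 15.5, 4 erythroid markers of 5 to 11.0 to 15.1 and 12.8 to 15.2, and the 13 epithelial markers to 264.5 to 315.2 and 326.6 to 387.6, in MOAP-1 and Vector tumors in that order. Fewer cells of a type, less RNA per cell, and the scaling of the arrays cannot be told apart in these bulk samples. The top 1% of probes other than RP probes had a median change of -0.36 between MOAP-1 and Vector tumors. The part of brightness in the sums was not tested. Of the 6 leukocyte markers 3 were called lower and 1 higher in MOAP-1 than in Vector tumors. Of the 13 epithelial markers 1 was called lower and 0 higher, with 5 positive and 8 negative changes (median -0.10). The part of these cells in the RP values was not tested.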

How the data were processed

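For each of the 15 arrays the authors deposited Agilent Feature Extraction output with the background-corrected intensity of every spot and the median intensities of spot and local background. The labels give version 9.1 of that software and the file headers 10.5.1.1. They also deposited log2 values from GeneSpring, in which 8 columns follow the array of their own label and 7 another array of the same construct, so this table was an alternative only.

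Intensities of 43118 spots other than controls, less those flagged as outliers, were log2-transformed, the array's 75th percentile was set to 0, and spots of a probe were averaged (34127 probes). Kept were the 30585 well above background in all 3 tumors of a construct. Genes were named through RefSeq (GRCh38.p14). The p values come from limma 3.58.1 (lmFit, eBayes) in R 4.3.3 with construct as the only term, 10 residual degrees of freedom, and Benjamini-Hochberg adjustment over kept probes, tested on simulated data. Arrays have no counting depth, and their number limits the precision. Normexp used median spot signals, since mean signals were not in the files used here.

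Members and lists were chosen with earlier results of these data known. Named were the 6 largest rises and falls in MOAP-1 against Vector and the 3 largest in each other construct among called genes, all members of the stalk, 5S RNP, paralog, S6 kinase, and ubiquitin roles, genes with probes called in opposite directions, and up to 2 examples for each other role. Some genes that this covers are not reported here.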

Additional observations from a re-analysis of the deposited data

Results flagged for a closer look

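The change of RP genes against Vector differed between MOAP-1 tumors and those labelled RASSF1A in 42 of 80 genes by the direct test of MOAP-1 against RASSF1A (limma, adjusted p below 0.05). All 12 genes that were higher in MOAP-1 than in RASSF1A tumors had a negative change in RASSF1A against Vector, none of which passed the test. These genes were picked on the same RASSF1A arrays, so that sign is in part built in. Of all 80 RP genes 68 had a negative change in RASSF1A against Vector, as did 7971 of all 18013 genes. With the scan day as a term, 3 RP genes were higher and 3 lower in this comparison.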

How the results depend on the processing

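Quantile normalization gave 17 called RP genes (11 higher, 6 lower) and a median of 0.01 for MOAP-1 against Vector, 16 (12 higher, 4 lower) and 0.05 for K264R, 4 and -0.03 for K278R, and 30 (19 higher, 11 lower) and 0.01 for MOAP-1 against RASSF1A, with medians of -0.03 and 0.03 for MOAP-1 against K264R and K278R. Scaling to the other bright probes gave, in the same order, 21 and 0.02, 27 and 0.05, 8 and -0.01, 27 and 0.04, and medians of -0.03 and 0.03. No scaling gave 3 and 0.12, 22 and 0.46, 1 and -0.01, 9 and 0.06, medians of -0.35 and 0.13, and 0.03 for RASSF1A against Vector. Both of these were chosen after seeing the data. Under them the median of all probes was 0.37 and 0.47 for MOAP-1 against Vector, and the RP median relative to it was -0.35 in both.

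Setting the array median to 0 gave medians of -0.48, -0.52, and -0.40 for MOAP-1, K264R, and K278R against Vector. It gave -0.47 for MOAP-1 against RASSF1A and 0.04 for MOAP-1 against K264R. There were 44 calls for K278R, while all probes shifted to -0.13 in MOAP-1 against Vector. Normexp called 0 RP genes for MOAP-1, K264R, and K278R against Vector and 9 (6 higher, 3 lower) for MOAP-1 against RASSF1A, with medians of -0.04, -0.30, 0.00, and 0.18 for the 4 constructs against Vector and 0.26 for MOAP-1 against K264R, beside an all-probe median of -0.53 in MOAP-1 against Vector. Omitting the 15 spots with an extreme local background (added after seeing the data) gave 17 calls for K278R and a median of -0.36 for K264R. The mean of all probes gave medians of -0.25, -0.31, and -0.17 for MOAP-1, K264R, and MOAP-1 against RASSF1A. Requiring 1.5-fold left 7, 25, and 1 (higher) calls for MOAP-1, K264R, and K278R against Vector and 17 (10 higher) for MOAP-1 against RASSF1A. In that order, the methods' t-test with 1.5-fold gave 7, 25, 1 (higher), and 15 (8 higher). After adjustment the t-test gave 0 for K278R and 24 for MOAP-1 against RASSF1A. A fit of only 6 arrays called 1 in K278R, array weights 24 in MOAP-1 against K264R, and the scan day 6 in MOAP-1 against RASSF1A, with a median of -0.20. The cause of these differences was not tested. For the settings of this section other than the main fit, the share of all genes called is not reported here. Weights were not applied to medians.

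Leaving out a tumor gave 25 to 39 calls for MOAP-1, 47 to 55 for K264R, 4 to 42 for K278R, and 0 to 10 for RASSF1A against Vector, 26 to 42 for MOAP-1 against RASSF1A, and 0 for MOAP-1 against either mutant form. The medians were -0.37 to -0.30, -0.46 to -0.40, -0.32 to -0.19, -0.14 to -0.04, -0.31 to -0.22, and, against K264R and K278R, 0.05 to 0.14 and -0.12 to -0.03. Among named genes the direction turned for RPL10 with the mean of its probes (0.01), for RPLP0, RPL26, RPS6, and RPL23A after quantile normalization (0.02, 0.00, 0.03, and 0.08), for RPL26, RPS6, and RPL23A when scaled to bright probes (0.03, 0.04, and 0.09), and without scaling for these and RPLP0 (0.13, 0.14, 0.19, and 0.05), RPL22L1 (0.01), and RPL13, RPL19, and RPS18 in K264R (0.01, 0.01, and 0.02).

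Replicate numbers were not treated as pairs in the main fit. Deviations of same-numbered tumors correlated at a median of 0.11 (15 of 30 pairs over 0.1), against -0.03 for tumors of different numbers. With the replicate number as a block 47, 56, 29, and 46 RP genes were called in MOAP-1, K264R, and K278R against Vector and MOAP-1 against RASSF1A, and RPLP2 gained a call. The other settings and results, 238 of 315 in all, kept their direction and stayed within 1.5 times the count or the spread between tumors.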
